A study of Mus musculus with 2 samples.

Results

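The genes described here make, sense, move and export cholesterol, and they were read on 2 single-colour microarrays of whole liver RNA from mice aged 24 weeks. They were chosen by name, as probes whose annotated symbol is 1 of 37 listed genes; the rule uses no measured value, though the list was drawn up with earlier results of these data known. Of the 37 names 32 had a probe, 33 probes in all, out of 19318 genes named on the array. The other 5 had no named probe under that symbol: Fdps, Acat2, Soat1, Soat2 and Sc4mol, the last an older name of Msmo1, which was measured. Both enzymes of cholesterol esterification are among these 5, so that step was not analysed here. The control liver carried Twist2-Cre alone in its label, and the other, called CKO here, carried Twist2-Cre with A20fl/fl, so both share the Cre allele. A20, encoded by Tnfaip3, restrains NF-kB signalling, and Twist2-Cre acts mainly in mesenchymal lineages. Each genotype had 1 array; the number of animals behind each RNA, and whether the control animals had floxed alleles, are not stated.

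Hepatocytes make cholesterol from acetyl-CoA through mevalonate, squalene and lanosterol. When membrane cholesterol is low, the carrier Scap takes the transcription factor SREBP2, product of Srebf2, out of the endoplasmic reticulum, and SREBP2 then activates the genes of synthesis and uptake; Insig proteins hold Scap back when sterol is ample. When sterols accumulate, the liver X receptor encoded by Nr1h3 activates ABC transporters that export cholesterol to lipoproteins and bile.

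Most of the sterol genes were at similar levels in both livers, and a few stood apart. Acetoacetyl-CoA synthetase, Aacs, was 2.78-fold lower in the CKO liver and ranked 2 from the lowest among 14143 genes. The mevalonate pathway enzyme Mvd (1.52-fold), the SREBP feedback protein Insig1 (1.31-fold) and the sterol carrier Stard4 (1.25-fold) were also lower. On the higher side were the sterol exporter Abcg1 (log2 ratio 0.56) and the lysosomal cholesterol exporters Npc1 (0.39) and Npc2 (0.30). The synthesis enzyme Sc5d (0.31) was higher as well. Against the scanner's local background column, an alternative that turned several directions, Stard4 and Npc1 had the opposite sign and Abcg1 was within the spread. Aacs stayed lower there, but by less than 1.5-fold (log2 ratio -0.48). With 1 array per genotype there is no test, no p-value and no error across animals, so these values describe 2 arrays.

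Deposited intensities are the authors' linear values. Ratios are log2 of CKO over control after background correction with an offset of 50, which shrinks the differences of dim genes, and quantile normalization. As a guide to size only, each ratio is set beside the spread at its level, a robust SD of the ratios of all genes in the same of 20 level classes. That spread ran from 0.026 in the dimmest class to 0.21, and 35.3% of the 14143 genes above background on both arrays lay outside it. Of the 32 measured genes 30 were above background on both arrays; Pmvk, which phosphorylates phosphomevalonate, and Mylip, the ubiquitin ligase that degrades lipoprotein receptors, were above it on neither, so they are given no fold.

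Of these 30 genes 12 (40%) lay outside the spread at their level, a share close to the 35.3% of all genes. Of these 7 were higher (beside 15.3% of all genes) and 5 lower (beside 20%). Their median ratio was 0.04, beside -0.02 over all genes. Higher values were seen in 17 and lower ones in 13, where 42.2% of all genes were higher and 57.7% lower. Only 2 of the 30, Aacs and Mvd, were at least 1.5-fold lower, beside 0.417% of all genes, and 0 were at least 1.5-fold higher, beside 1.7%. Aacs alone passed 2-fold on the lower side, beside 0.0778% of all genes, and 0 of the 30 did so on the higher side, beside 0.636%.

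**Figure D1:**
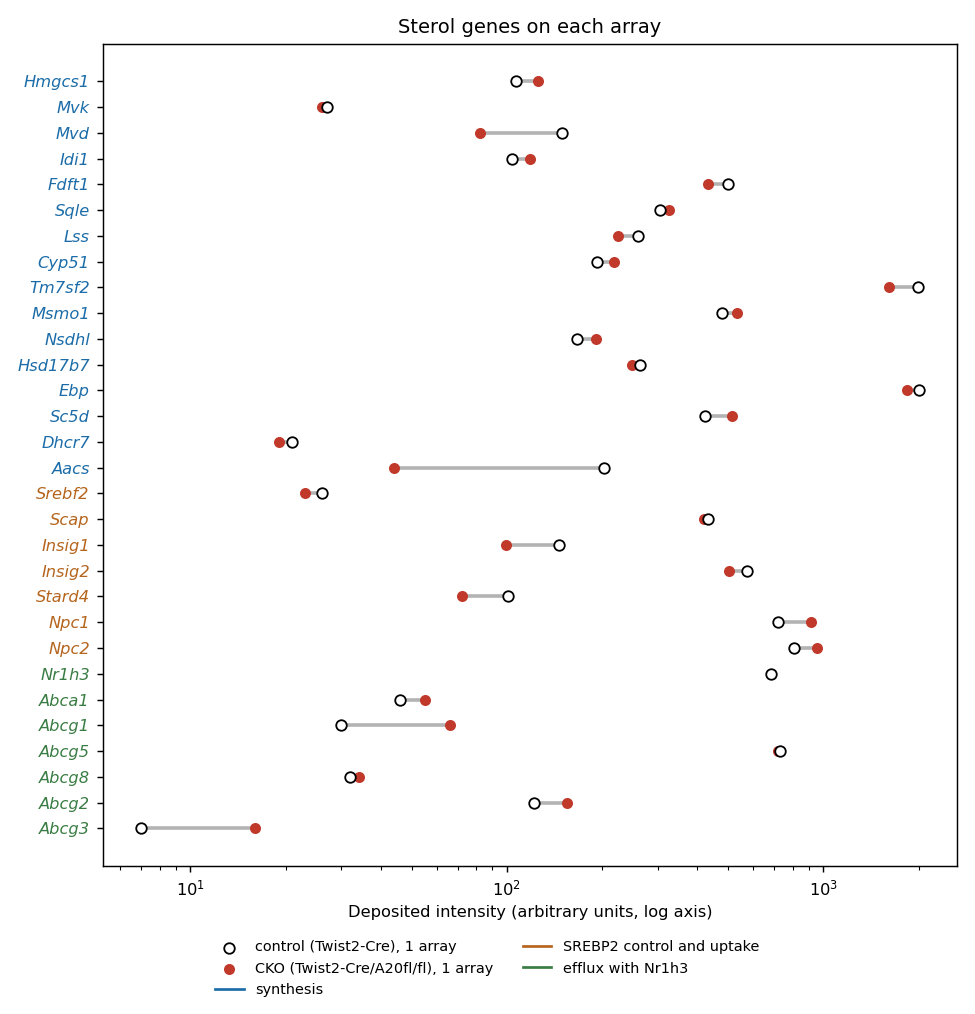
Deposited intensity (arbitrary units, log axis) of the 30 sterol genes above background on both arrays, the control as open circles and the CKO as filled circles, 1 array each, with gene names coloured by role. Aacs has the longest bar to the left, from 202 to 44, and Abcg1 moves the other way, from 30 to 66.

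The 4 promoter windows shown belong to the 3 genes with the largest ratios on the lower side and to Hmgcs1. This synthase acts early in the pathway and was not lower. They come from RefSeq (GRCm38.p6), from 250 bases before to 50 after the annotated start, 5′ to 3′ on the gene's strand. Capitals mark the CCAAT box, read as CCAAT or on the other strand as ATTGG, and the core of the sterol regulatory element, TCACNCCAC.
Aacs, chr5:125475623-125475922, plus strand: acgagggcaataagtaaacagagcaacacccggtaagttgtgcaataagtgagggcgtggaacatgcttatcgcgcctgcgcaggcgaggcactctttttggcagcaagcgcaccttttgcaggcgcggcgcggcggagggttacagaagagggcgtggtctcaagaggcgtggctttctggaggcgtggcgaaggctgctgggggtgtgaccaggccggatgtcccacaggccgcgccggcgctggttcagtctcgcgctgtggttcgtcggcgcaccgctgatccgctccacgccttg
Mvd, chr8:122443373-122443672, minus strand: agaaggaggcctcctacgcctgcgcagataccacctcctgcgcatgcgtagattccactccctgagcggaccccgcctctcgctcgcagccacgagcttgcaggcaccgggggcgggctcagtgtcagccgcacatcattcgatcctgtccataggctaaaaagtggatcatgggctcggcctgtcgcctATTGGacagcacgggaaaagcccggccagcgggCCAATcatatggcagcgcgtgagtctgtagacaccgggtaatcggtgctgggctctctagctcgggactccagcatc
Insig1, chr5:28071162-28071461, plus strand: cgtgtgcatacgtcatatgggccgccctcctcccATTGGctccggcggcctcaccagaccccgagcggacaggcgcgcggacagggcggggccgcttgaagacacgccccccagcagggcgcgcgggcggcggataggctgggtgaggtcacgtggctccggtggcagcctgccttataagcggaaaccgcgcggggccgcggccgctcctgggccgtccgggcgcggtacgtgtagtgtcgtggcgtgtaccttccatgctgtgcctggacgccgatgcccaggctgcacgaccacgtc
Hmgcs1, chr13:119690101-119690400, plus strand: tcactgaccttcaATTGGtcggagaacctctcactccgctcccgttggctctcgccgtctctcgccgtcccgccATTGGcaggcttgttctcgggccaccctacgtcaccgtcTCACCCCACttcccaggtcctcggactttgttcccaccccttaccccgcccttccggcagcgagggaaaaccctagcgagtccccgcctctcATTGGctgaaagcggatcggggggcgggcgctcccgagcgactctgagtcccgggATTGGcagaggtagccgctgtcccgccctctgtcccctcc
The Aacs window held neither motif, that of Mvd held 2 CCAAT boxes, that of Insig1 held 1, and that of Hmgcs1 held 4 together with the only sterol element core found.

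Of the 32 measured genes 27 had at least 1 window in the table, and CCAAT, the box bound by NF-Y, a partner of SREBP2, was read in 22 of them on either strand (81.5%, beside 41.1% of all 27025 genes with a window). Among the enzymes of synthesis it was found in 14 of 15, and Aacs was the exception. The sterol element core was found in 1 of the 27 genes (3.70%), beside 1.44% of all genes. The E-box CACGTG, which reads the same on both strands and which SREBP factors can also bind, was found in 6 of 27 (22.2%), beside 8.09%, among them Insig1 and Sc5d. None of the 3 motifs contains another. Genes with several starts have several windows and so more chances of a match, and a match is a description of letters, not of binding.

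Aacs activates acetoacetate, a ketone body, in the cytosol and so feeds carbon to sterol and fatty acid synthesis. Its deposited intensity was 202 (control) and 44 (CKO), 4.59-fold lower. On the normalized scale its log2 level was 8.19 and 6.72, a ratio of -1.47 where the spread at its level was 0.17. The direction was lower under every processing tried, but against the scanner's local background column the ratio was -0.48, below 1.5-fold.

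The first steps of the pathway proper condense and phosphorylate the precursors up to isopentenyl pyrophosphate. Mvd, which decarboxylates mevalonate pyrophosphate, had deposited intensities of 149 and 82 and a ratio of -0.60, beside a spread of 0.17. Under median scaling its ratio was -0.58 and under cyclic loess -0.57, just short of 1.5-fold. Pmvk, which acts just before Mvd, was not above background. The other enzymes read in these steps, Hmgcs1, Mvk and Idi1, were not lower beyond the spread. The synthase Hmgcs1 was read by 2 probes, one at 185 (control) and 215 (CKO) and the other at 28 and 36, with ratios of 0.19 and 0.15, so both were on the higher side. The kinase Mvk stood at 27 and 26, a ratio of -0.03. The isomerase Idi1 stood at 104 and 118, a ratio of 0.14. Hmgcs1 and Idi1 thus lay on the other side of 0 from Mvd, which acts between them in the pathway. Against the local background column, however, Idi1 was lower (-0.46), past its spread of 0.17.

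Squalene synthesis and ring closure showed no ratio outside the spread. Fdft1, which joins farnesyl units into squalene, had deposited intensities of 499 and 433 and a ratio of -0.14. Sqle, which oxidizes squalene, stood at 305 and 324 (ratio 0.11). Lss, which closes the sterol ring, stood at 259 and 225 (ratio -0.16). The spread at these levels was 0.21 for Fdft1 and 0.18 for Sqle and Lss. With the local background column Fdft1 (-0.67), Sqle (-1.34) and Lss (-0.59) were each lower past their spread.

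The 8 late enzymes that turn lanosterol into cholesterol were split, 4 higher and 4 lower. Of these 3 were outside the spread, beside 35.3% of all genes. Sc5d, which introduces a double bond into the sterol ring, had intensities of 421 and 513 and a ratio of 0.31, beside a spread of 0.21. The reductase Tm7sf2 lay on the opposite side, at 1986 and 1608 with a ratio of -0.23 beside 0.18. Nsdhl, a dehydrogenase of sterol demethylation, was at the edge of its spread of 0.19, with 166 and 191 and a ratio of 0.19. Against the local background column Tm7sf2 (0.39) and Nsdhl (-0.22) had the opposite sign. The other enzymes that remove methyl groups from the ring were within it: Cyp51 stood at 192 and 218 (ratio 0.16) and Msmo1 at 478 and 533 (ratio 0.19). Hsd17b7, the ketoreductase of that same step, stood at 263 and 249 (ratio -0.05). The isomerase Ebp had 1998 and 1839 (ratio -0.04). The final reductase Dhcr7 had 21 and 19 (ratio -0.04). At these small sizes the late steps did not share a direction. Over the 16 synthesis genes above background, 7 were higher and 9 lower, with a median of -0.03, which was the same to 2 decimals without Aacs.

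**Figure D2:**
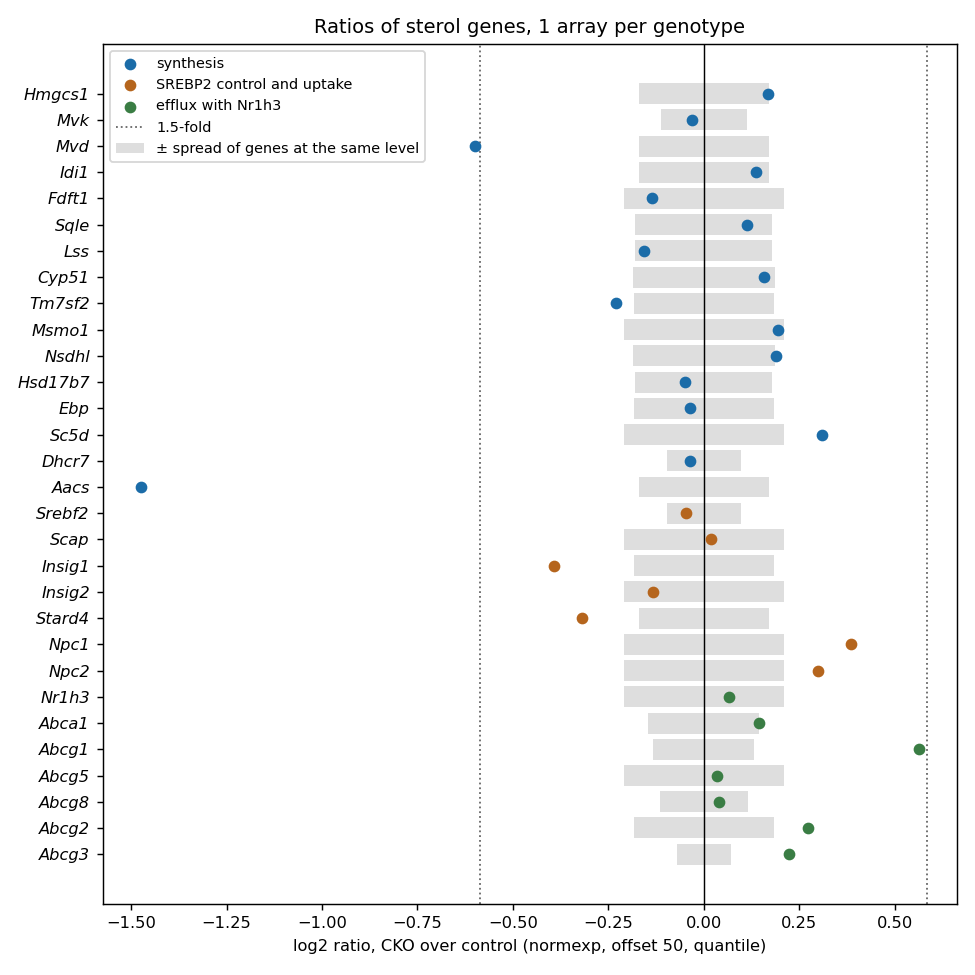
Log2 ratio of CKO over control for each of the 30 genes (points coloured by role, 1 array per genotype), with grey bars for the spread of ratios among genes of the same level and dotted lines at 1.5-fold. Aacs (-1.47) and Mvd (-0.60) lie beyond the left line, and Abcg1 (0.56) is just inside the right one.

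In the control of SREBP2, the feedback protein Insig1 was lower while the factor and its carrier were near equal. Insig1, itself a target of SREBP2, had deposited intensities of 146 and 99 and a ratio of -0.39, beside a spread of 0.18. Insig2, its relative, had 573 and 502 and a ratio of -0.13, inside a spread of 0.21. Srebf2 was dim in both livers, at 26 and 23 (ratio -0.05), and Scap stood at 432 and 418 (ratio 0.02). Scap (-0.51) and Insig2 (0.83) were past their spread of 0.21 against the local background column. Stard4, a soluble carrier that moves cholesterol between membranes and is also an SREBP2 target, had 101 and 72 and a ratio of -0.32, beside 0.17. Insig1 and Stard4 were thus lower by more than the spread. Among the enzymes of synthesis, Hmgcs1, Idi1, Sqle and Cyp51, also SREBP2 targets, were on the higher side within it. Sc5d (ratio 0.31) and Nsdhl (0.19) were higher past their spread, and Tm7sf2 (-0.23) was lower past its own. Mvd was lower past its spread, and Fdft1 and Lss were lower within theirs. The 16 synthesis genes split into 7 higher and 9 lower, so they shared no direction. Against the local background column Idi1 (-0.46), Sqle (-1.34), Cyp51 (-0.34) and Nsdhl (-0.22) were on the lower side. Stard4 (0.15) and Tm7sf2 (0.39) were on the higher. These directions thus depend on the processing.

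Npc1 and Npc2 hand cholesterol taken up with lipoproteins out of the lysosome, and both were higher. Npc1, the membrane protein, had deposited intensities of 721 and 913 and a ratio of 0.39. Npc2, the soluble partner, had 805 and 956 and a ratio of 0.30. The spread at both levels was 0.21. Against the local background column Npc1 was on the lower side (-0.20) and Npc2 stayed higher (0.79). Over the 7 genes of SREBP2 control and uptake above background, 3 were higher and 4 lower, with a median of -0.05.

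All 7 genes of efflux, Nr1h3 included, had ratios above 0, where 42.2% of all genes did, with a median of 0.14. Of them 3, Abcg1, Abcg2 and Abcg3, were higher past the spread at their level, beside 15.3% of all genes. At least 1.5-fold higher were 0, beside 1.7% of all genes. Abcg1, which loads cholesterol onto high density lipoprotein, had deposited intensities of 30 and 66, 2.20-fold higher, and a ratio of 0.56 beside a spread of 0.13. Against the local background column its ratio was 0.11, inside that spread. Abca1, which makes nascent particles of that lipoprotein, stood at 46 and 55 (ratio 0.14), at the edge of its spread of 0.15. Nr1h3 stood at 681 and 682 (ratio 0.06). The receptor's own transcript was thus near equal while 1 of its targets was higher. This contrast depends on the processing, because Nr1h3 was higher (0.56) against the local background column, past its spread of 0.21.

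Abcg5 and Abcg8 form the pair that secretes sterols into bile, and both were near equal. Abcg5 had 727 and 716 (ratio 0.03) and Abcg8 had 32 and 34 (ratio 0.04). The genes lie head to head, with annotated starts 110 bases apart, so that their promoter windows share 209 bases. Abcg5 was on the lower side in the deposited values (-0.02), and Abcg8 against the local background column (-0.01). With that column Abcg5 was higher (0.40), past its spread of 0.21. Abcg2, a transporter of drugs and urate rather than cholesterol, had 122 and 155 and a ratio of 0.27 beside 0.18. Abcg3, its rodent relative, was close to background at 7 and 16, with a ratio of 0.22 beside 0.07. In the deposited values 2 of the 30 genes, Abcg1 and Abcg3, were at least 2-fold higher (beside 3.69% of all genes) and 1, Aacs, at least 2-fold lower (beside 0.997%).

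**Figure D3:**
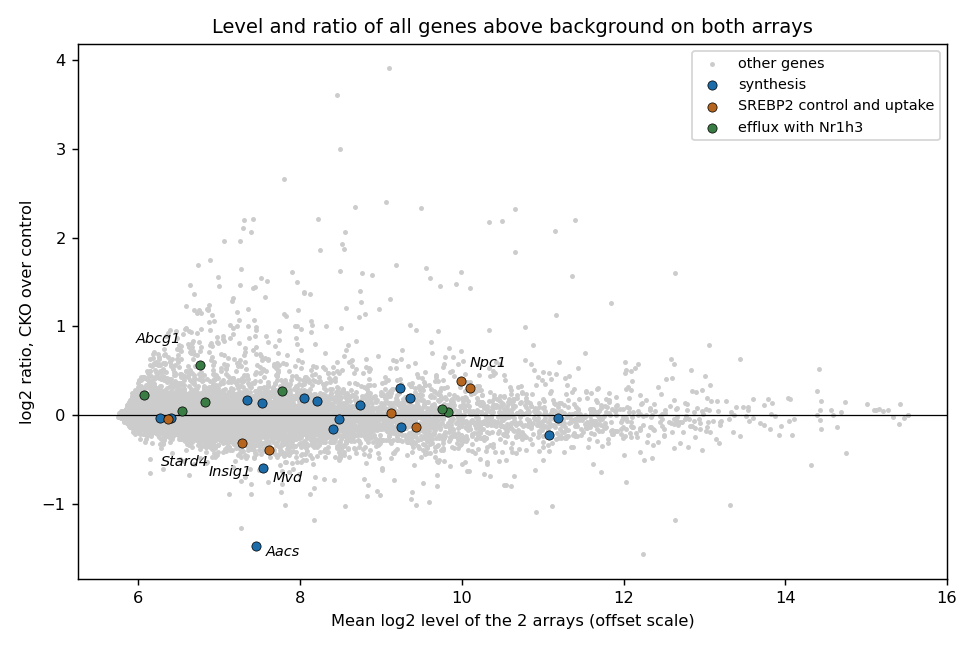
Mean log2 level on the 2 arrays against the log2 ratio of CKO over control for the 14143 genes above background on both, with the 30 sterol genes coloured by role. Aacs (-1.47) lies among the lowest points, and most other sterol genes lie within the cloud of genes at their level.

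Other genes of sterol handling, from a list of 34 names of which 26 had a probe, showed a similar mixture. Of 25 above background on both arrays 14 were higher (beside 42.2% of all genes) and 11 lower (beside 57.7%), with a median of 0.01. On each side 4 were outside the spread, beside 15.3% of all genes higher and 20% lower. On the normalized scale 0 passed 1.5-fold, beside 1.7% of all genes higher and 0.417% lower. In the deposited values 3 were at least 1.5-fold higher (beside 6.87% of all genes) and 2 at least 1.5-fold lower (beside 3.92%). The largest differences were those of the lipoprotein receptor Vldlr (103 and 54, ratio -0.58) and of Srebf1, which encodes the SREBP of fatty acid synthesis (317 and 206, ratio -0.51). Tmem97, which binds Npc1 (120 and 187, ratio 0.50), and the high density lipoprotein receptor Scarb1 (60 and 91, ratio 0.38) were higher. Against the local background column Vldlr (0.20), Srebf1 (0.15) and Scarb1 (-0.21) had the opposite sign.

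Markers of liver cell types gave the setting of these values. Tnfaip3 itself had intensities of 41 and 38 (ratio -0.07); where its probe lies relative to the deleted part is not known, so it checks nothing. Hepatocyte markers matched the labelled tissue, with 10 of 10 above background and a median of 0.00. They were not all equal: 2 were higher and 3 lower by more than the spread (beside 15.3% and 20% of all genes). Sums of deposited intensity are over the markers above background on both arrays, and for hepatocytes they were 151711 and 145378. Macrophage markers were higher in 13 of 13 genes above background on both arrays (median 1.02; sums 2777 and 9245), with Adgre1 above background on the CKO array only. All 6 such markers of T and NK cells were higher (sums 64 and 244), with Cd3e not above background and Nkg7 above it on the CKO array only. These 13 macrophage and 6 T and NK cell markers were all higher past the spread, beside 15.3% of all genes. Endothelial markers were lower in 6 of 8 (median -0.32, sums 1499 and 1019), with Cdh5 not above background. Cholangiocyte markers were lower in 5 of 5 (sums 134 and 95). Of all genes 57.7% were lower. Past the spread 6 endothelial and 4 cholangiocyte markers were lower, beside 20% of all genes. Stellate cell markers were higher in 3 of 7, beside 42.2% of all genes (sums 931 and 741). Without Ecm1, which carries most of the sum, the sums were 106 and 108. Macrophages also express Abcg1, Abca1, Npc1, Npc2 and Nr1h3; the part of these markers in the ratios was not tested, and in whole tissue more cells of a type and more RNA per cell cannot be told apart.

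**Figure D4:**
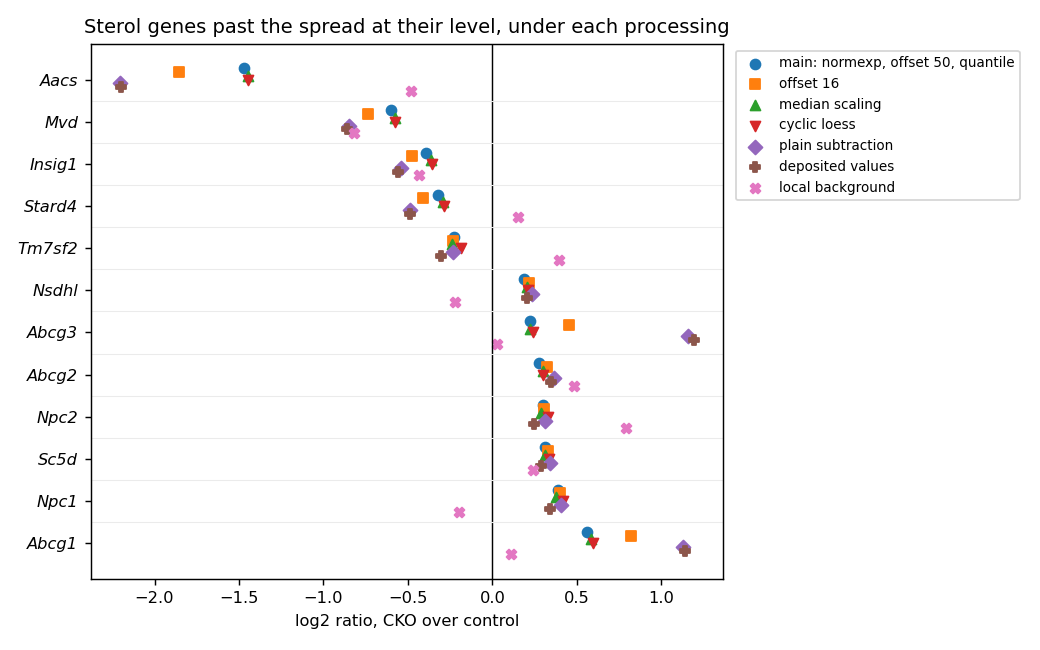
Log2 ratio of CKO over control for the 12 sterol genes outside the spread at their level, under 7 ways of processing the same 2 arrays (symbols). Aacs, Mvd and Insig1 stay left of 0 throughout, while Stard4, Tm7sf2, Nsdhl and Npc1 cross it against the local background column.

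All 12 genes outside the spread kept their direction with an offset of 16, plain subtraction, the deposited values, median scaling and cyclic loess. Against the local background column 8 of the 12 did.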

How the data were processed

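Total RNA of liver, 1 sample per genotype, was amplified and labelled with Cy5, per the labels' protocols. Per the file headers, the scanner files give 1 median intensity for a spot and 1 for the background around it. The deposited value table holds intensity on a linear scale; how it was made is not stated, and against the spots it equals intensity above the blank spots times a factor of 0.859 (control) and 0.825 (CKO), with a median of 25 in both columns.

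Spots were corrected with normexp against the blank spots' mean (limma 3.58.1, R 4.3.3, offset 50), control spots dropped and arrays quantile-normalized. The local background column rose with the spot's own signal (r = 0.989 control, 0.973 CKO across spots) and was kept as an alternative. Above background means over the blank mean plus 2 SD (69.5 control, 72.2 CKO); 73.8% and 73.6% of gene spots were. Blank spots numbered 384 per array. Probes flagged on any array were left out. Of 23469 probes 20686 had 1 symbol and 2783 none; a gene's value is the mean log2 of its probes. Positive control spots varied by 0.14 to 0.20 (SD of log2).

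With 1 array per genotype the number of arrays limits the precision. Genes were counted past 1.5-fold and 2-fold. The rule for named genes was every listed member, plus the 4 largest ratios of the other sterol genes. Members and lists were chosen with earlier results of these data known. The procedure was tested on simulated data. Alternatives were plain subtraction, an offset of 16, the deposited values, the local background, median and cyclic loess scaling, the brightest probe, no filter, and only genes at or above the median level.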

Additional observations from a re-analysis of the deposited data

How the results depend on the processing

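The cause of each shift below was not tested unless the setting's construction gives it. The median over the members moved by less than 0.1 under all 9 alternatives. The median of the synthesis genes was -0.19 against the local background column, and that of SREBP2 control and uptake -0.18 in the deposited values. The median of the efflux genes was 0.26 in the deposited values and 0.27 with plain subtraction, where no offset shrinks dim genes. The count of members at least 1.5-fold higher, 0 as reported, was 2 in the deposited values (6.87% of all genes), 2 with plain subtraction (6.73%), 2 against the local background column (5.63%), 1 with an offset of 16 (2.81%) and 1 with cyclic loess (1.89%). The count at least 1.5-fold lower, 2 as reported, was 4 against the local background column (Mvd, Fdft1, Sqle and Lss, without Aacs; 4.46% of all genes), 1 with median scaling (0.41%) and 1 with cyclic loess (0.361%). Of the alternatives, only the local background column turned the sign of a ratio that lay outside the spread, in 7 genes: Tm7sf2 (0.39), Nsdhl (-0.22), Stard4 (0.15), Npc1 (-0.20), Vldlr (0.20), Srebf1 (0.15) and Scarb1 (-0.21). Of the other values of single genes under an alternative, 261 moved by less than the spread at their level and 37 by more. Many of the 261 were fixed by construction. No filter and the median-level cut leave a gene's ratio as it is, and the brightest probe does so for a gene with 1 probe. These settings gave 34, 33 and 34 of the 261. Against the local background column 19 genes moved by more than the spread, 7 turned sign and 8 moved by less. No paired analysis was possible because each genotype had 1 array. Dim genes such as Abcg3, Mvk, Dhcr7 and Srebf2 lie close to background, which limits their ratios.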
